A study of Homo sapiens with 6 samples.

Results

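The 10 receptors described here are cell-surface receptors that raise calcium inside the cell: the oxytocin receptor (OXTR), the M3 muscarinic acetylcholine receptor (CHRM3), neurotensin receptor type 1 (NTSR1), the thrombin receptor PAR1 (F2R) and the trypsin receptor PAR2 (F2RL1), the B1 and B2 bradykinin receptors (BDKRB1, BDKRB2), a lysophosphatidic acid receptor (LPAR1) and the endothelin receptors A and B (EDNRA, EDNRB). They were taken as a named list from the 58051 genes in the count tables. The list was chosen by the contrast of RBFOX1 with GFP cells, with OXTR and CHRM3 named as receptors that rise and NTSR1 and F2R as receptors that fall, so the values of the members are given as a description, with no test. The cells were A172, an established human glioblastoma line, made stable with a lentiviral pLX317 plasmid that carried either RBFOX1 or, as control, GFP. Both groups were A172 cells that had received virus produced in HEK293T cells, so neither group was untransduced. RBFOX1 is an RNA-binding protein that recognizes TGCATG (written in DNA letters), and it was measured here as an introduced transcript in a tumour line. There were 3 libraries of each group.

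In A172 cells with RBFOX1, the oxytocin receptor was 5.10-fold and the M3 muscarinic receptor 15.9-fold above the GFP cells, and LPAR1 was 2.48-fold above. The neurotensin receptor was 2.15-fold, PAR2 2.41-fold and PAR1 1.59-fold lower. The B2 bradykinin receptor and endothelin receptor A had nearly the same mean in both groups, the B1 bradykinin receptor overlapped between them, and endothelin receptor B was almost without reads. PAR1 headed the list in GFP cells and the oxytocin receptor headed it in RBFOX1 cells. The RNA is from whole cultures, in which fewer cells with a receptor and less receptor mRNA per cell cannot be told apart.

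All 10 are G-protein-coupled receptors that can act through Gq and the closely related G11. The activated alpha subunit turns on phospholipase C beta, which splits a membrane lipid into inositol trisphosphate and diacylglycerol. Inositol trisphosphate opens channels in the endoplasmic reticulum that let calcium into the cytosol, and diacylglycerol activates protein kinase C. Regulator of G protein signalling (RGS) proteins, receptor kinases and arrestins end the signal. Several of these receptors are known in glial tumours and in blood vessel walls, where their ligands (thrombin, bradykinin, endothelin, lysophosphatidic acid) drive contraction, migration or growth. The protein identity between members, computed from the coding sequences of 1 canonical transcript per gene, was 58.3% for EDNRA and EDNRB, 38.2% for BDKRB1 and BDKRB2 and 36.8% for F2R and F2RL1, as a share of the shorter protein, and 20.1 to 27.5% for the other pairs.

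Because RBFOX1 recognizes TGCATG, the 3' untranslated regions (UTRs) of the members were searched for it on the transcribed strand, in 1 canonical transcript per gene. At least 1 copy was found in 7 of the 10 members, beside 36.5% of 14049 tested protein-coding genes. EDNRB, 1 of these 7, had too few reads to be tested. The 3 members with none were OXTR, NTSR1 and BDKRB1, that is, a receptor that was higher, a receptor that was lower and a receptor that did not separate. The shorter GCATG, which lies within TGCATG, was searched for too. It was found in every member but NTSR1 and BDKRB1, with 1 copy in OXTR, beside 61.8% of the 14049 genes. The UTR lengths differ and bear on these counts. Every member but BDKRB1 had a UTR as long as or longer than those of at least 54.9% of the genes, so the shares compare unlike lengths. The UTR of CHRM3 has 6226 nucleotides, as long as or longer than those of 95.3% of the genes, that of OXTR has 2596, that of NTSR1 has 2504 and that of BDKRB1 has 19. Within the first 1000 nucleotides of the UTR, 5 members held a copy (F2R, F2RL1, LPAR1, EDNRA and EDNRB), beside 26.2% of the 8089 genes whose UTR was at least that long. BDKRB1, with its shorter UTR, falls outside this comparison. A match to these letters is a description of the sequence and does not show that RBFOX1 binds there.

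The following 30-base windows hold the copies in the members that changed and, for contrast, in EDNRA, whose groups overlapped. They run 5′ to 3′ on the transcribed strand with TGCATG in capitals, on build GRCh38. Those of CHRM3 lie 2814 and 5556 nucleotides past the stop codon, that of F2R 773, those of F2RL1 151 and 938, those of LPAR1 548 and 1372, and those of EDNRA 304 and 1458. BDKRB2 and EDNRB held 1 copy each.
CHRM3, chr1:239912026-239912055, plus strand: tttcatgccataTGCATGaggtttgcagac
CHRM3, chr1:239914768-239914797, plus strand: cttaaaaatcctTGCATGtagttttgcttg
LPAR1, chr9:110874856-110874885, minus strand: gtttagaaagcaTGCATGtaatgtatgtat
LPAR1, chr9:110874032-110874061, minus strand: ctgcttttgtacTGCATGggtggcagttgt
F2R, chr5:76734264-76734293, plus strand: attcctgagagcTGCATGtgtccgcccccg
F2RL1, chr5:76833940-76833969, plus strand: agctcccctgttTGCATGagaaaagtagtc
F2RL1, chr5:76834727-76834756, plus strand: gtggtacaaaccTGCATGgtgtttatgcac
EDNRA, chr4:147542910-147542939, plus strand: atttactactttTGCATGaaaatagagctt
EDNRA, chr4:147544064-147544093, plus strand: gtgtgtgatataTGCATGtgtgtgatggta

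Members with a copy were thus found among those that were higher (CHRM3, LPAR1), those that were lower (F2R, F2RL1) and those that overlapped between the groups (EDNRA, BDKRB2).

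The libraries held 7433414 to 23249221 counts on genes, the shallowest being RBFOX1 replicate 1 and the deepest GFP replicate 1. Values below are normalized counts, which are counts divided by the library's size after TMM scaling and multiplied by the mean size of the 6 libraries. In the shallowest library 3 counts are worth 5.44 normalized counts, so a receptor below that level could not be told from none there. Log2 fold changes are fitted values of RBFOX1 over GFP with a standard error (SE). The SE is approximate: it is the size of the log2 fold change divided by the square root of the F statistic of edgeR's quasi-likelihood test. The introduced gene itself was at 0 to 2.43 normalized counts in the GFP libraries and 18282 to 19588 in the RBFOX1 libraries, so each library matched its label. The 3 libraries of a group are described as biological replicates, but whether each came from a separate transduction is not given in the sources used here.

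Of the 10 members, 9 had at least 10 counts over the 6 libraries and were fitted. EDNRB was not, with 2 counts in all. In 6 members the groups did not overlap, 3 being higher and 3 lower in every RBFOX1 library, where 53.4% of the 20536 genes fitted did not overlap. Since the members were chosen with this contrast known, nothing is read from this count. GFP replicate 1, the deepest library, stood apart from the other GFP libraries: the chi-square per degree of freedom between counts was 8.90 and 9.07 in its pairs and 1.66 to 3.01 in the other pairs of replicates. Without it, the log2 fold changes were 2.38 for OXTR, 3.89 for CHRM3, 1.31 for LPAR1, -1.04 for NTSR1, -0.66 for F2R, -1.12 for F2RL1, -0.31 for BDKRB1, -0.10 for BDKRB2 and 0.00332 for EDNRA.

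OXTR (ENSG00000180914, chr3:8750381-8769628, minus strand) encodes the receptor for the peptide hormone oxytocin. Its normalized counts were 313, 276 and 323 in the GFP libraries and 1613, 1478 and 1584 in the RBFOX1 libraries. The lowest RBFOX1 library was far above the highest GFP library, and the libraries of each group lay close together. The means were 304 ± 25.1 (SD, n = 3) and 1558 ± 71.1, a log2 fold change of 2.35 (SE 0.0685).

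CHRM3 (ENSG00000133019, chr1:239386565-239915452, plus strand) encodes the muscarinic receptor through which acetylcholine contracts smooth muscle and stimulates glands. It had 21, 15 and 12 reads in the GFP libraries and 114, 240 and 213 in the RBFOX1 libraries. As normalized counts these were 12.7, 17.5 and 12.6 against 207, 266 and 194. Every RBFOX1 library was above every GFP library, but the GFP level rests on few reads and the RBFOX1 libraries spread more than those of OXTR. The means were 14.3 ± 2.78 and 223 ± 38.5, a log2 fold change of 3.99 (SE 0.185), the largest change among the members.

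LPAR1 (ENSG00000198121, chr9:110873263-111038470, minus strand) encodes a receptor for lysophosphatidic acid, a lipid that moves cells and contracts them. Its normalized counts were 51.0, 47.9 and 54.8 in GFP cells and 127, 118 and 136 in RBFOX1 cells. All RBFOX1 libraries were higher, with means of 51.2 ± 3.46 and 127 ± 9.19 and a log2 fold change of 1.31 (SE 0.134).

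NTSR1 (ENSG00000101188, chr20:62708836-62762771, plus strand) encodes the receptor for the gut and brain peptide neurotensin. It was at 735, 584 and 724 normalized counts in GFP cells and at 343, 291 and 326 in RBFOX1 cells. GFP replicate 2 was the lowest of its group and still above all RBFOX1 libraries. The means were 681 ± 84.0 and 319.9 ± 26.5, a log2 fold change of -1.11 (SE 0.0904).

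F2R (ENSG00000181104, chr5:76716126-76735770, plus strand) encodes PAR1, which thrombin activates by cutting its outer end. It was the most tightly measured member, at 1280.3, 1232 and 1273 normalized counts in GFP cells and 784, 802 and 789 in RBFOX1 cells. Its change was the smallest of the 6 that separated, from a mean of 1262 ± 25.9 to 791 ± 9.25, a log2 fold change of -0.67 (SE 0.0551). F2RL1 (ENSG00000164251, chr5:76818933-76835315, plus strand) encodes PAR2, which trypsin and similar proteases cut. Its normalized counts were 114, 88.8 and 92.7 in GFP cells and 39.9, 48.9 and 36.5 in RBFOX1 cells. Both protease-activated receptors were thus lower in every RBFOX1 library, F2RL1 with a log2 fold change of -1.27 (SE 0.166).

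The bradykinin receptors did not separate. BDKRB2 (ENSG00000168398, chr14:96204679-96244166, plus strand), the receptor present in many tissues at rest, was at 94.7, 118 and 113 normalized counts in GFP cells and 103, 108 and 109.6 in RBFOX1 cells, a log2 fold change of 0.01 (SE 0.126). BDKRB1 (ENSG00000100739, chr14:96256210-96268967, plus strand), the receptor that tissues make after injury or inflammation, was at 28.5, 19.9 and 21.1 against 9.07, 21.1 and 16.4. The groups overlapped, and RBFOX1 replicate 1, the shallowest library, held 5 reads of it. Its log2 fold change was -0.55 (SE 0.288). Both genes share exon sequence on the same strand with an annotated read-through gene, over 376 bases of BDKRB1 and 479 of BDKRB2. Counting in intersection-strict mode can leave out reads from there, so the level of both is uncertain.

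EDNRA (ENSG00000151617, chr4:147480917-147544954, plus strand), the endothelin receptor of vascular smooth muscle, was at 63.1, 66.6 and 53.7 normalized counts in GFP cells and 63.5, 63.3 and 54.8 in RBFOX1 cells. Its groups overlapped almost wholly, with a log2 fold change of -0.03 (SE 0.157). EDNRB (ENSG00000136160, chr13:77895481-77975529, minus strand), the endothelin receptor of glia, melanocytes and endothelium, had 1, 0 and 1 reads in the GFP libraries and none in the RBFOX1 libraries. At this depth no difference in EDNRB could be seen, and no fold is given.

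**Figure D1:**
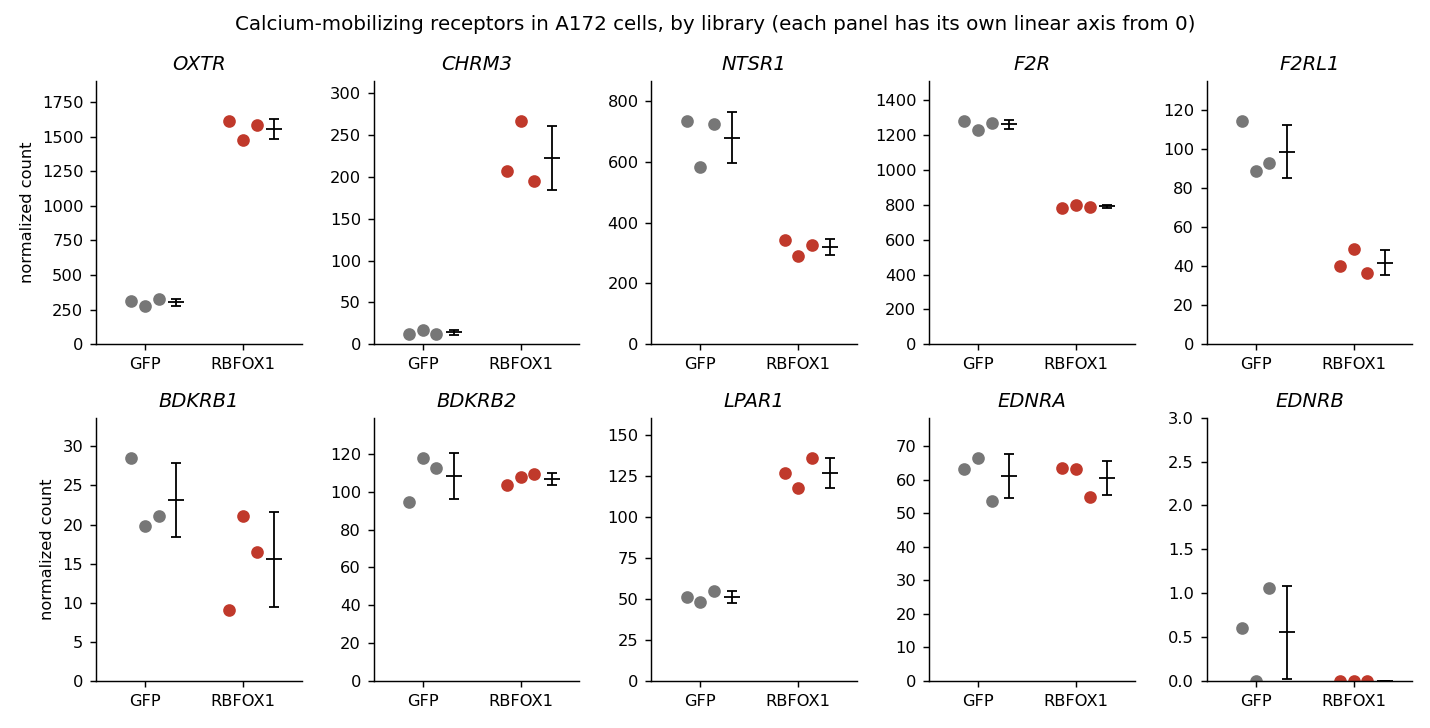
Normalized counts of the 10 receptors in each GFP (grey) and RBFOX1 (red) library, on a linear axis from 0 that differs between panels, with black bars for the mean ± SD of 3 libraries. OXTR, CHRM3 and LPAR1 are higher in all 3 RBFOX1 libraries, NTSR1, F2R and F2RL1 are lower in all 3, and the other panels overlap.

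Levels of different genes can be compared only per length, so each count was scaled to the same library total (CPM, the usual unit of RNA-seq) and divided by the length of the merged exons in kilobases (kb). In GFP cells the order was F2R at 22.9 ± 0.470 CPM per kb, NTSR1 at 11.6 ± 1.43, OXTR at 4.82 ± 0.398 and F2RL1 at 2.42 ± 0.336, with no overlap between libraries of neighbours in this order. BDKRB2 (1.14 ± 0.128), EDNRA (1.04 ± 0.113), LPAR1 (0.892 ± 0.0602) and BDKRB1 (0.703 ± 0.143) followed, and neighbours among these 4 overlapped. CHRM3 was far below them at 0.0679 ± 0.0132, and EDNRB was last at 0.00711 ± 0.00679.

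In RBFOX1 cells the order was OXTR at 24.7 ± 1.13 CPM per kb, F2R at 14.4 ± 0.168, NTSR1 at 5.44 ± 0.450 and LPAR1 at 2.21 ± 0.160, again with no overlap between neighbours. BDKRB2 (1.12 ± 0.0334), CHRM3 (1.06 ± 0.183), EDNRA (1.03 ± 0.0844) and F2RL1 (1.03 ± 0.157) lay together and overlapped with their neighbours on this length. BDKRB1 was at 0.472 ± 0.184 and EDNRB at 0. OXTR thus moved from the third place to the first.

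The sum over the 10 receptors was 45.5 ± 2.48 CPM per kb in GFP cells and 51.4 ± 1.01 in RBFOX1 cells, so the make-up of the sum changed more than its size. OXTR made 10.6% ± 0.402 of it in GFP cells and 48.0% ± 1.26 in RBFOX1 cells. F2R made 50.3% ± 1.76 and 27.9% ± 0.884, and NTSR1 made 25.3% ± 1.82 and 10.6% ± 0.673. For each OXTR transcript there were 2.40 ± 0.124 NTSR1 transcripts per length in GFP cells and 0.220 ± 0.00846 in RBFOX1 cells. The ratio of PAR1 to PAR2 was 9.55 ± 1.10 and 14.2 ± 1.93, with 8.28 to 10.2 in the GFP libraries and 12.1 to 15.9 in the RBFOX1 libraries. The order rests on the annotation: with the length of 1 canonical transcript in place of merged exons, 7 of the 10 members kept their place in GFP cells and all 10 in RBFOX1 cells. The levels of CHRM3, BDKRB1 and BDKRB2 rose by over 1.5 times with that length, and CHRM3 in RBFOX1 cells (1.75 ± 0.302 CPM per kb) then lay above EDNRA (1.10 ± 0.0901) with no overlap.

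**Figure D2:**
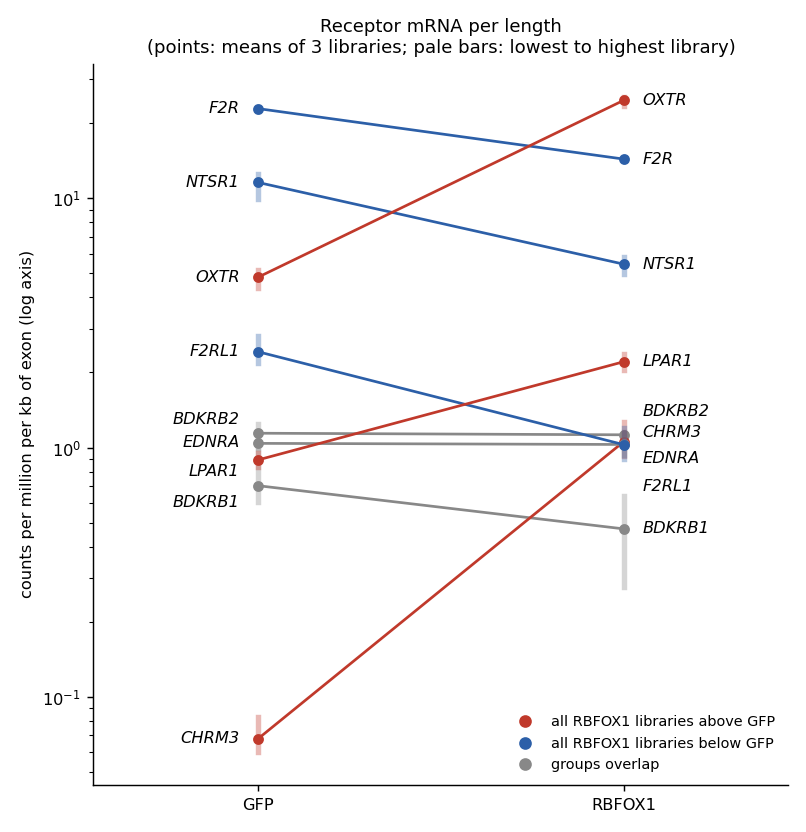
Level of each receptor mRNA in CPM per kb of exon, on a log axis, in GFP and RBFOX1 cells. Points are means of 3 libraries and pale bars run from the lowest to the highest library. The colour shows whether all RBFOX1 libraries lay above GFP, all lay below or the groups overlapped, and EDNRB, at 0.00711 and 0, is left out. The line of OXTR crosses those of F2R and NTSR1, and CHRM3 climbs from 0.0679 to 1.06.

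Genes with the most similar profile were sought for the 4 receptors that the rule names, by the Euclidean distance between log2 CPM over the 6 libraries, each gene centred on its own mean, among 11068 protein-coding genes whose normalized counts averaged at least 50. Nearest to OXTR were ADM (adrenomedullin, a peptide that widens vessels), at a distance of 0.166 and a log2 fold change of 2.31, and SPARC (a matrix protein), at 0.208 and 2.28. Nearest to CHRM3 were COL14A1 (a collagen), at 0.304 and 4.01, and VCAM1 (an adhesion molecule), at 0.384 and 3.88. Nearest to NTSR1 were ZDHHC1 (a palmitoyltransferase), at 0.163 and -1.15, and MKNK2 (a kinase of the MAP kinase pathway), at 0.218 and -0.97. Nearest to F2R were IDE (the insulin-degrading enzyme), at 0.0486 and -0.65, and LNPK (a shaping protein of the endoplasmic reticulum), at 0.0494 and -0.68. The distance is over 2 groups of 3 libraries, so genes with a like fold change and a small spread lie near each other.

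Other receptors known to couple to Gq were compared next. Over all 20536 genes, 46.6% passed the threshold of an adjusted p under 0.05 in edgeR's quasi-likelihood test, with 23.7% higher and 22.9% lower. Among the 13700 genes whose normalized counts averaged at least 20, 61.0% passed. Of the 60 receptors, 25 could be tested and 12 rose and 3 fell (60.0%, median log2 fold change 0.58, against 0.01 over all genes tested). Of the 35 others, 21 had no read in any library. F2RL2, the third protease-activated receptor PAR3, rose from 42.6 ± 5.58 to 143 ± 4.76 normalized counts (log2 fold change 1.74, adjusted p = 1.79e-09). TBXA2R, the thromboxane receptor, rose by less (0.82, adjusted p = 1.01e-05). GPR39, a zinc-sensing receptor, had the largest fall, from 368 ± 13.9 to 94.0 ± 12.2 (-1.98, adjusted p = 3.16e-12).

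ADRA1D, an adrenaline receptor, was higher (log2 fold change 0.78, adjusted p = 0.0159), but not without GFP replicate 1 (adjusted p = 0.102), without RBFOX1 replicate 1 (adjusted p = 0.0882) or with DESeq2 (adjusted p = 0.0646). S1PR3, a sphingosine phosphate receptor, was lower (-0.34, adjusted p = 0.0156), but not without GFP replicate 2 (adjusted p = 0.0582), without RBFOX1 replicate 1 (adjusted p = 0.0520) or with DESeq2 (adjusted p = 0.105). Genes with few reads make up part of the rises: among the 13 whose normalized counts averaged at least 20, 7 rose and 2 fell, where 29.5% of all such genes rose and 31.5% fell. The other muscarinic receptors of the Gq type, chosen here after their values were seen, had almost no reads. CHRM1 had none in GFP cells and 2, 3 and 5 in RBFOX1 cells, and CHRM5 had 1, 2 and 2 against 2, 3 and 3. CHRM3 was thus the only one of the 3 with more than 5 reads in any library.

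**Figure D3:**
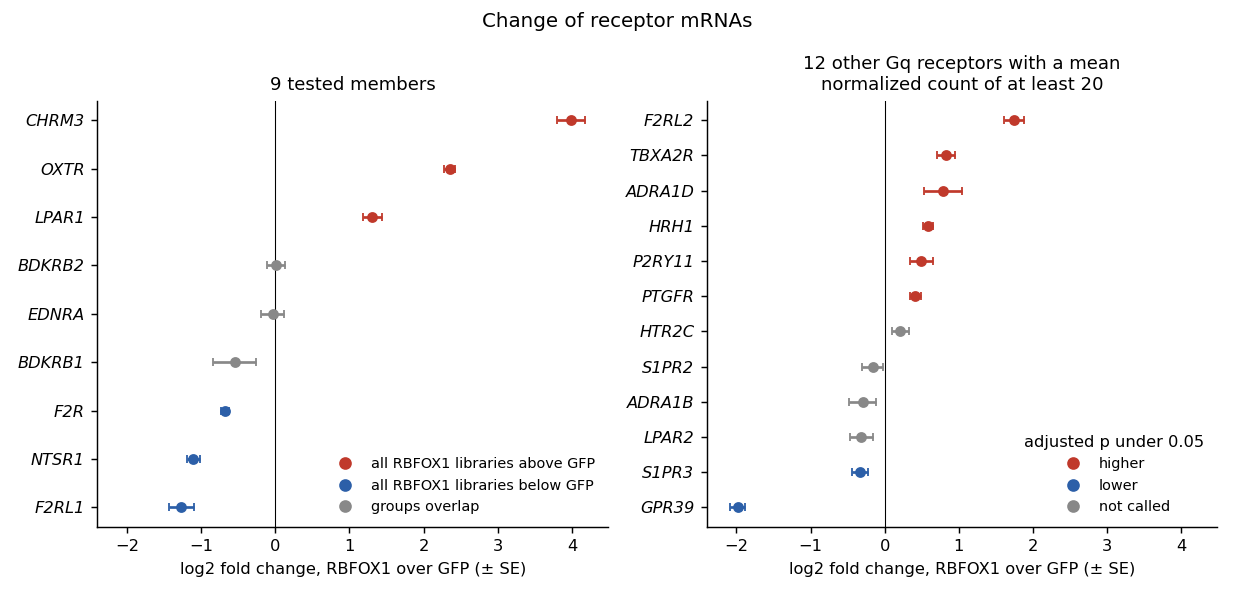
Log2 fold change of RBFOX1 over GFP cells with its standard error for the 9 fitted members (left, chosen by this contrast) and for 12 of the 13 other Gq-coupled receptors whose normalized counts averaged at least 20 (right). Colours show, on the left, whether the groups overlapped and, on the right, genes called higher, lower or neither at an adjusted p under 0.05 in edgeR's quasi-likelihood test. CHRM3 at 3.99 is the highest point and GPR39 at -1.98 the lowest.

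The genes of PAR1, PAR2 and PAR3 are neighbours on chromosome 5. Relative to the first base of F2R, F2RL2 spans -100.6 to -92.7 kb on the minus strand and F2RL1 spans 103 to 119 kb on the plus strand. Within 250 kb on either side, the other gene whose normalized counts averaged at least 20 was IQGAP2, a scaffold protein of the cytoskeleton, whose span holds F2RL2 on the opposite strand. PAR3, which often acts as a helper of other thrombin receptors, was at 41.9, 37.4 and 48.5 normalized counts in GFP cells and 147, 138 and 144 in RBFOX1 cells. It was higher in every RBFOX1 library, while F2R and F2RL1 were lower in every one. IQGAP2 was at 40.7 ± 4.74 and 91.95 ± 12.7 (log2 fold change 1.21, adjusted p = 3.35e-06). This stretch and IQGAP2 were chosen after the values were seen, and the reads were counted by strand.

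**Figure D4:**
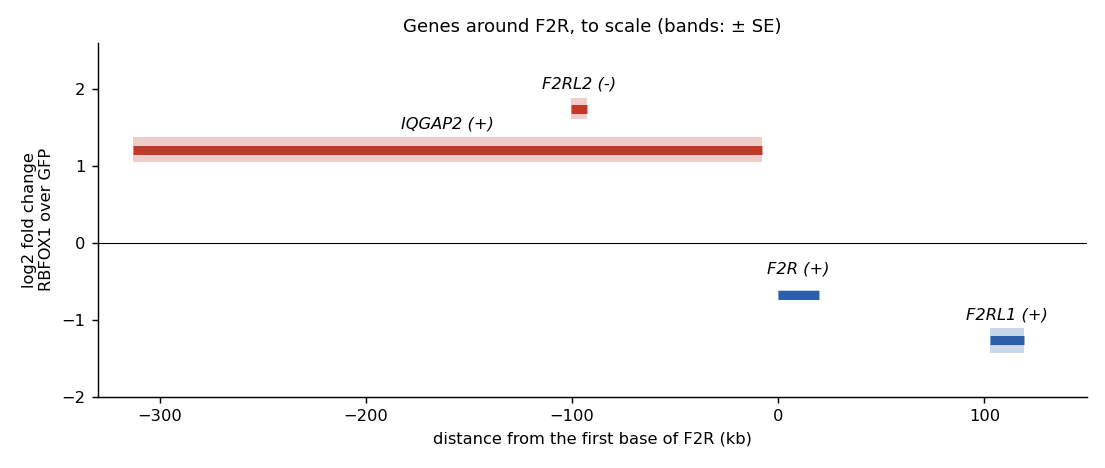
Genes whose normalized counts averaged at least 20 around F2R, drawn to scale by distance from its first base in kb, with the log2 fold change of RBFOX1 over GFP cells on the vertical axis, bands of ± SE, and the strand in brackets. IQGAP2 at 1.21 and F2RL2 at 1.74 lie above 0, and F2R at -0.67 and F2RL1 at -1.27 below it.

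The ligands of the members and the enzymes that make, activate or break them were the next group. Of 32 genes, 21 could be tested, and 7 rose and 9 fell (76.2%, against 46.6% of all genes, median log2 fold change 0.13). Among the 17 that averaged at least 20 normalized counts, 5 rose and 9 fell, where 29.5% of all such genes rose and 31.5% fell. The median of these 17 had the other sign (-0.47). The precursor of oxytocin (OXT), the enzyme that makes acetylcholine (CHAT) and EDN3 had no read in any library. The precursors of neurotensin (NTS), kinins (KNG1) and thrombin (F2) had at most 4 reads in a library. For OXTR, CHRM3, NTSR1, the bradykinin receptors and, with thrombin, F2R, the mRNA of the ligand's precursor or enzyme was thus at or near 0 in both groups.

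Endothelin was different. EDN1, the precursor of endothelin-1, was at 79.5, 75.9 and 74.8 normalized counts in GFP cells and 432, 545 and 418 in RBFOX1 cells (log2 fold change 2.59, SE 0.115, adjusted p = 2.91e-13). ECE1, the enzyme that cuts the precursor to its active form, fell from 3920 ± 73.5 to 1521 ± 99.7 (-1.37, adjusted p = 3.81e-14). The ligand precursor rose and its processing enzyme fell, beside a receptor EDNRA at 61.1 ± 6.65 and 60.5 ± 4.96.

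Genes that act on the thrombin receptor also moved. F3 (tissue factor), which starts the cascade that makes thrombin, rose from 82.3 ± 9.23 to 484 ± 32.2 (log2 fold change 2.55, adjusted p = 3.81e-14). MMP1, a collagenase that can also cut PAR1, fell from 1597 ± 97.0 to 221 ± 9.11 (-2.84, adjusted p = 5.09e-17). Around LPAR1, ENPP2 (autotaxin, which makes lysophosphatidic acid) was at 7.28, 5.84 and 6.32 normalized counts in GFP cells and 23.6, 21.1 and 24.7 in RBFOX1 cells (1.78, adjusted p = 7.92e-05). LIPH, another enzyme that makes this lipid, fell (-3.11, adjusted p = 2.23e-11), and of the phosphatases that break it down, PLPP3 rose from 62.0 ± 7.17 to 105 ± 3.93 (0.74, adjusted p = 0.000152) and PLPP1 by less (0.22, adjusted p = 0.0497). PLPP2, the most counted of them, fell from 2379 ± 173 to 1303 ± 44.5 (-0.87, adjusted p = 1.44e-10). PLPP1 and PLPP2 were chosen after their values were seen, and the groups overlapped for PLPP1. BCHE, which breaks down choline esters, fell from 704 ± 23.3 to 336 ± 22.5 (-1.08, adjusted p = 1.67e-10). MME (neprilysin), which cuts kinins and other peptides, rose a little (0.29, adjusted p = 0.000157).

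Of the 12 genes for G protein alpha subunits, 10 could be tested, and 2 rose and 3 fell (50%, against 46.6% of all genes, median log2 fold change -0.03). Among the 9 that averaged at least 20 normalized counts, 55.6% passed, against 61.0% of all such genes. GNAQ, the alpha subunit of Gq, was at 1821, 1875 and 1915 normalized counts in GFP cells and 1639.7, 1749.7 and 1771 in RBFOX1 cells, a log2 fold change of -0.12 that did not pass (adjusted p = 0.0721) but did without GFP replicate 1 (adjusted p = 0.0273). GNA11, that of G11, was at 2145 ± 124 and 2164 ± 48.3 (0.01, adjusted p = 0.877). Changes among the subunits were larger for the inhibitory G proteins, some of which OXTR, LPAR1 and F2R can also use. GNAI1 rose (0.87, adjusted p = 2.80e-10), GNAI3 rose (0.67, adjusted p = 1.68e-09), GNAI2 fell (-0.44, adjusted p = 2.55e-07) and GNAZ fell (-0.55, adjusted p = 8.16e-05). GNAS, the subunit of stimulatory Gs, was lower by 0.13 on the log2 scale (-0.13, adjusted p = 0.0337), and this call was lost when any library but GFP replicate 1 was left out (adjusted p of 0.0514 without GFP replicate 2, 0.154 without GFP replicate 3, and 0.128, 0.0595 and 0.0781 without RBFOX1 replicates 1, 2 and 3).

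Downstream of Gq, 26 of 28 genes for phospholipase C and its second messengers could be tested, and 9 rose and 9 fell (69.2%, median log2 fold change 0.08). Among the 23 that averaged at least 20 normalized counts, 7 rose and 9 fell (69.6%, against 61.0% of all such genes). Of the phospholipases C beta, PLCB4 rose from 391.9 ± 59.3 to 963 ± 43.7 normalized counts (1.32, adjusted p = 1.26e-10) and PLCB3 from 1093 ± 32.4 to 1742 ± 45.5 (0.67, adjusted p = 1.61e-09), while PLCB1 was at 20.2 ± 2.36 and 23.8 ± 6.76 (0.19, adjusted p = 0.611). PLCE1, a phospholipase C driven by Ras proteins, rose from 8.13 ± 2.54 to 85.8 ± 12.3 (3.45, adjusted p = 3.06e-10). It had 9, 9 and 8 reads in the GFP libraries, so the size of its change rests on few reads.

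The inositol trisphosphate receptors, the calcium channels this cascade opens, did not move together. ITPR3, the most counted of them, fell from 6905 ± 104 to 3562 ± 280 (log2 fold change -0.96, adjusted p = 1.18e-11), and ITPR2 rose from 502 ± 30.2 to 758 ± 20.2 (0.59, adjusted p = 3.46e-07). ITPR1 was at 222 ± 18.8 and 191 ± 21.3 (-0.24, adjusted p = 0.0602), and it passed without GFP replicate 3 (adjusted p = 0.0312) or RBFOX1 replicate 1 (adjusted p = 0.0337). Diacylglycerol kinases, which end the diacylglycerol signal, changed in opposite ways, with DGKI higher (4.22, adjusted p = 9.30e-12) and DGKG lower (-2.30, adjusted p = 8.92e-13). DGKI had 10, 3 and 6 reads in the GFP libraries, so the size of its change rests on few reads. PRKCD, a protein kinase C, fell (-0.96, adjusted p = 0.000172), as did ITPKA (-0.83, adjusted p = 6.39e-07), a kinase that uses up inositol trisphosphate.

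The group that ends receptor signals held 26 genes, of which 23 could be tested, and 11 rose and 5 fell (69.6%, median log2 fold change 0.08). All 23 averaged at least 20 normalized counts, where 29.5% of genes rose and 31.5% fell. The rises include HOMER1 (0.23, adjusted p = 0.0117) and HOMER2 (0.26, adjusted p = 0.0102), which are scaffold proteins of the synapse and do not themselves end receptor signals, and which were picked out after their values were seen. RGS5 rose from 111 ± 9.57 to 1452 ± 102 normalized counts (3.69, adjusted p = 9.28e-18), RGS8 rose (1.98, adjusted p = 4.10e-07), and RGS16 (0.80, adjusted p = 7.51e-11), RGS4 (0.76, adjusted p = 4.41e-10) and RGS2 (0.71, adjusted p = 0.00114) rose by less. RGS5, RGS4, RGS2 and RGS16 are known to act on Gq. RGS17 fell (-1.26, adjusted p = 1.00e-10), and RGS19 (-0.37, adjusted p = 0.00356) and RGS10 (-0.28, adjusted p = 0.00131) fell slightly. The arrestins, which bind activated receptors and stop them from coupling, moved in opposite directions. ARRB2 was at 44.9, 51.4 and 48.5 normalized counts in GFP cells and 243, 252 and 216 in RBFOX1 cells (2.30, adjusted p = 4.79e-12). ARRB1 was at 459, 488 and 526 against 210.4, 258 and 295 (-0.91, adjusted p = 1.29e-07). ARRB1 was the more counted arrestin in all 3 GFP libraries, and in RBFOX1 cells the normalized counts of the 2 genes overlapped, which is not a comparison per length.

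**Figure D5:**
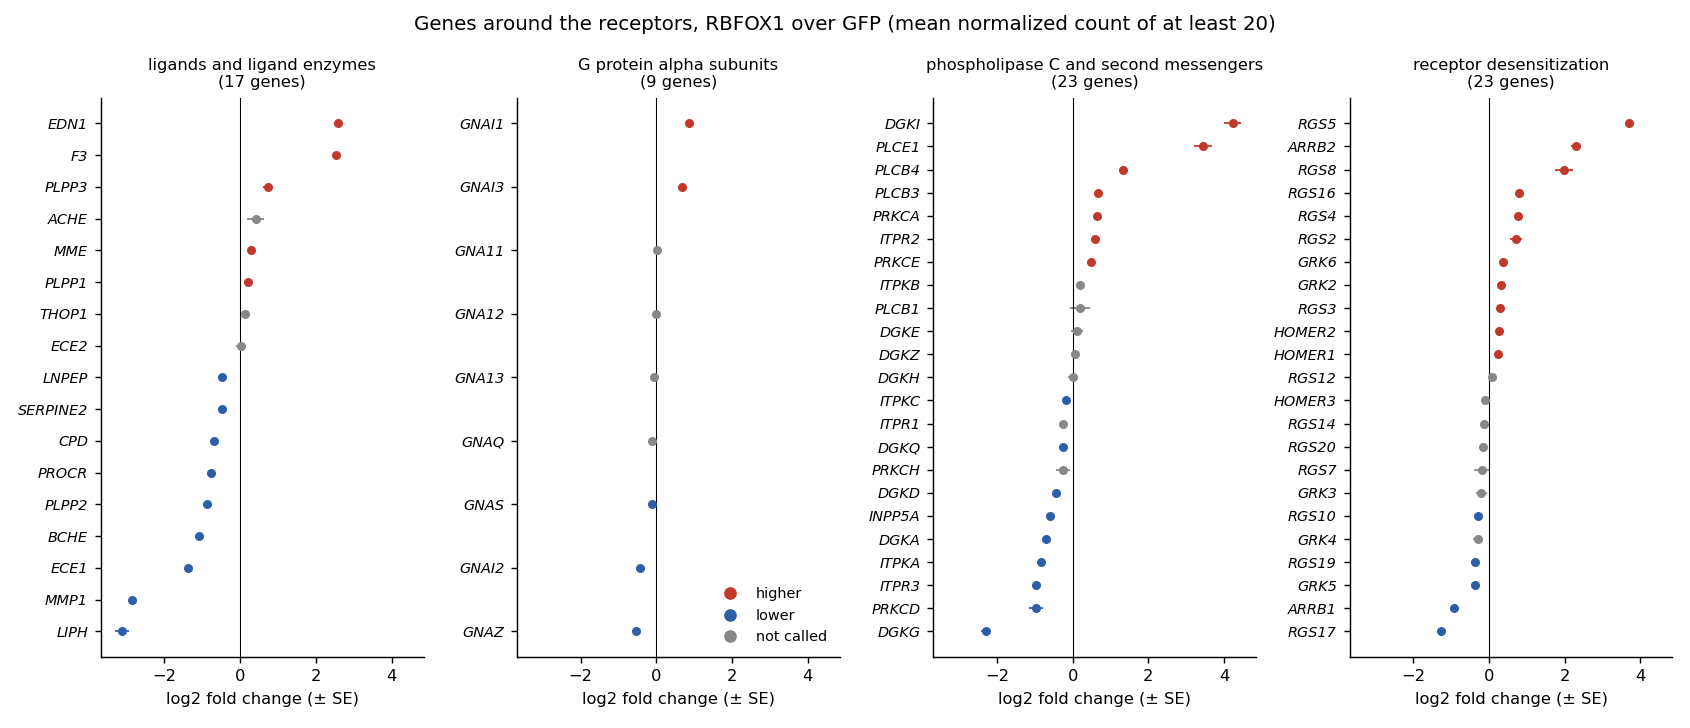
Log2 fold change of RBFOX1 over GFP cells with its standard error for the genes around the receptors whose normalized counts averaged at least 20: ligands and their enzymes (17), G protein alpha subunits (9), phospholipase C and second messengers (23) and desensitization (23). Colours show genes called higher, lower or neither. The alpha subunits lie between -0.55 and 0.87, and the other groups spread from -3.11 (LIPH) to 4.22 (DGKI).

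The labelled cell type was checked against markers. Of the glial and glioblastoma markers, VIM, CD44, NES, SOX2 and OLIG2 were detected, while AQP4 had no read, S100B at most 2 and GFAP at most 4 reads in a library, so defining astrocyte markers were absent or nearly so in both groups. The list summed to 76162 to 77777 normalized counts in GFP and 50432.5 to 51191 in RBFOX1 libraries, with 2 of 6 tested genes higher and 3 lower. Markers of other cell types moved with the groups. The counts in this paragraph stand beside 46.6% of all genes tested that passed, 23.7% higher and 22.9% lower. Among genes whose normalized counts averaged at least 20, 61.0% passed. Endothelial markers (4 of 4 tested higher) summed to 104 to 132 and 394 to 443, those of smooth muscle and pericytes (4 higher and ACTA2 lower of 5, RGS5 among them) to 1607 to 1705 and 3174 to 3324, epithelial ones (4 of 5 higher) to 8749 to 9014 and 32372.5 to 33718, neuronal ones (3 of 4 higher) to 218 to 233 and 513 to 644, and immune ones (1 of 2 higher, AIF1 and CD3E at 0) to 12.8 to 26.1 and 56.2 to 69.4. CLDN5, MYH11, RBFOX3 and SNAP25 had too few reads to be tested. Most of the epithelial sum was KRT8 (2519 ± 28.8 to 8012 ± 204) and KRT18 (6332 ± 152 to 24922 ± 516). KRT5 was at 0.202 ± 0.350 and 37.0 ± 6.01, EPCAM did not pass, and CDH1 had at most 5 reads in a library. Most of the endothelial sum was TEK (106 ± 15.2 to 308 ± 27.6), and most of the immune sum was PTPRC (16.1 ± 6.08 to 60.3 ± 9.95). In a GFP library VWF had at most 2 reads and CDH5 at most 4, so their rises rest on few reads. Genes of dividing cells (8 of 8 higher) summed to 5893 to 5956 and 15652 to 16903.5. Interferon-induced genes (7 of 8 higher, MX1 lower) summed to 3808 to 4216 and 5472 to 8622. The part of these in the receptor values was not tested.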

How the data were processed

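A172 cells with GFP or RBFOX1 gave 3 rRNA-depleted, stranded libraries each. HISAT2 alignment to GRCh38 and HTSeq counting per Ensembl gene and strand in intersection-strict mode were done by the authors (versions not given in the sources used here), who deposited raw counts. Their deposited DESeq2 comparison table was not used. Between 52.0 and 61.9% of the pairs in a library fell on genes, and the remaining classes stayed out of library sizes.

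Genes with at least 10 counts over the 6 libraries were scaled by TMM. Condition was the only term of the quasi-likelihood test (edgeR 4.0.16 under R 4.3.3), which was two-sided with Benjamini-Hochberg adjustment and a threshold of 0.05. The procedure was tested on simulated counts in which far fewer genes were changed than were called here, so that test does not cover a change this broad. Lengths and 3' UTRs came from GENCODE release 44, which matched 98.1% of the gene identifiers. Depth limits cover counting error only. All replicate pairs differed by more than sampling noise (chi-square over degrees of freedom 1.66 to 9.07).

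The members and lists were chosen with earlier results of these data known. Named were all members, RBFOX1, up to 4 rises and 4 falls per list among called genes whose normalized counts averaged at least 20 without overlap between groups, 15 core pathway genes whatever their values, and the 2 nearest profiles of 4 receptors. One gene that this rule names is not reported here. Cell type markers, OXT, CHAT, EDN3, NTS, KNG1, F2 and the genes said to be so were picked out after their values were seen. DESeq2 1.42.0, limma-voom (limma 3.58.1), other scalings and filters, a replicate block and omission of each library were alternatives.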

Additional observations from a re-analysis of the deposited data

How the results depend on the processing

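No member's log2 fold change moved by more than the spread between replicates (1 SD of the log2 values) in any of the 14 alternatives (13 for BDKRB1). With 1 library left out, the values ran from 2.29 to 2.39 for OXTR, 3.83 to 4.11 for CHRM3, 1.25 to 1.37 for LPAR1, -1.20 to -1.03 for NTSR1, -0.70 to -0.66 for F2R and -1.40 to -1.12 for F2RL1. For member fold changes the limit was 1 SD of the log2 values, as above, and for counts it was wide. Counts taken as unchanged include 3960 genes called higher with DESeq2, against 4869 in the main fit. They also include 8 other Gq receptors called higher with edgeR's filterByExpr, against 12. In the order of levels, 7 of 10 places kept in GFP cells was also within the limit. Of 380 alternative values of the main results, 375 kept to these limits. The other 5 were counts of lists: other Gq receptors called higher were 7 and response transcripts called higher 6 at a mean normalized count of at least 20 (chosen after seeing the data), other Gq receptors called lower were 1 with DESeq2, Gs receptors called lower were 2 with no filter on low counts, and response transcripts called lower were 2 to 4 with 1 library left out, the lowest without RBFOX1 replicate 3. For the low-count limit and the missing filter, a different number of genes was tested. For the others the cause was not tested.

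Of 61 named genes with a test, 54 kept their call in each alternative. GNA11, which did not pass, changed sign with upper quartile scaling (-0.011) and ran from -0.038 to 0.0448 with 1 library left out, below 0 without GFP replicate 2 or RBFOX1 replicate 3. GNAQ and ITPR1 passed with upper quartile scaling (adjusted p of 0.0268 and 0.0422). The replicate numbers are not stated to pair the libraries. Deviations from the group means of same-numbered libraries correlated at -0.104, 0.00876 and -0.0488 over 14473 genes. With 3 libraries per group, these values cannot show whether the libraries were paired. A fit with the replicate number as a block called 4588 genes higher and 4458 lower, against 4869 and 4711 without it, and changed the call of GNAS among the named genes (adjusted p = 0.0519). DESeq2 called 3960 and 3709. Depth limits CHRM3, PLCE1, DGKI and ENPP2 in GFP cells, BDKRB1, EDNRB and the ligand precursors, where few reads were counted.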

Other observations

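Receptors that couple to other G proteins, and transcripts known to follow signalling by Gq, calcium or the small GTPase RhoA, are given here as values. Of 43 receptors of the Gs type, which raise cyclic AMP, 20 could be tested and 9 rose and 1 fell (50%, median log2 fold change 0.60, where 23.7% of all genes rose and 22.9% fell). CALCRL, the shared receptor of the CGRP and adrenomedullin peptides, rose from 32.5 ± 4.53 to 174 ± 32.8 normalized counts (2.45, adjusted p = 1.25e-10 in edgeR's quasi-likelihood test), and PTGIR, the prostacyclin receptor (2.11, adjusted p = 5.62e-08), GLP2R (2.38, adjusted p = 8.21e-07) and HRH2, a histamine receptor (1.70, adjusted p = 3.08e-06), also rose. HTR7, a serotonin receptor, fell (-1.72, adjusted p = 1.24e-06). Of 73 receptors of the Gi type, which lower cyclic AMP, 21 could be tested and 10 rose and 2 fell (57.1%, median 0.38). SSTR2, a somatostatin receptor, rose from 304 ± 16.0 to 3664 ± 154 (3.59, adjusted p = 1.81e-19) and CXCR4, a chemokine receptor, from 46.5 ± 0.949 to 267 ± 16.0 (2.53, adjusted p = 3.98e-13). HTR1D (1.78, adjusted p = 8.96e-10) and GABBR2 (1.76, adjusted p = 2.79e-06) rose, and C3AR1 (-2.11, adjusted p = 4.33e-06) and NPY1R (-1.41, adjusted p = 8.11e-05) fell.

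The list of response transcripts held 18 that are known to be induced after Gq, calcium or RhoA signalling. Of these, 16 could be tested and 10 rose and 4 fell (87.5%, against 46.6% of all genes, median log2 fold change 1.51). Among the 9 that averaged at least 20 normalized counts, 6 rose and 3 fell, where 29.5% of all such genes rose and 31.5% fell. EGR1 rose from 13.1 ± 1.35 to 163 ± 23.4 normalized counts (3.64, adjusted p = 2.60e-12), CCN1 from 156 ± 25.7 to 622 ± 55.2 (2.0, adjusted p = 2.05e-12), CCN2 from 1587 ± 269 to 5301 ± 50.3 (1.75, adjusted p = 6.50e-13) and DUSP1 from 257 ± 21.7 to 671 ± 13.5 (1.37, adjusted p = 8.50e-12). HBEGF fell (-0.57, adjusted p = 1.80e-05). KLF2 was lower (-0.54, adjusted p = 0.00766), but not without RBFOX1 replicate 3 (adjusted p = 0.0679). These genes answer many other signals too, and the labels name no added ligand.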
